A study of Mus musculus with 20 samples.

Results

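The circadian clock genes were examined as 10 named members, Arntl, Clock, Npas2, Per1, Per2, Per3, Cry1, Cry2, Nr1d1 and Dbp, chosen by name. They were covered by 23 of the 39390 tested probes and by 10 of the 25618 gene names with a tested probe. The levels came from 20 one-colour arrays of visceral adipose tissue, taken from the epididymal area of male F3 C57bl/6J mice, with 1 mouse per array. The 6 Ref mice and the 6 HFoleic mice descended from a lineage whose growing diet carried high-oleic sunflower oil over 3 generations. The 8 HFepa mice descended from a lineage given fish oil rich in the omega 3 fatty acid EPA instead. HFoleic and HFepa mice then ate a high-fat, high-sucrose diet, while Ref mice ate a low-fat reference diet, so that HFoleic vs. Ref compares diets within 1 lineage and HFepa vs. HFoleic compares lineages on 1 diet. Whole tissue was measured, animals were killed while fasting under a light-dark cycle with equal light and dark periods, and the clock time of killing is not given in the sources used here. Age is likewise not given in the labels. Only mice whose RNA passed an integrity limit were put on arrays.

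The mammalian clock is a loop of transcription and translation that runs in nearly every cell, adipocytes included. BMAL1, the product of Arntl, pairs with CLOCK or its relative NPAS2 and switches on Per and Cry genes through E-box elements, and PER and CRY proteins then return to the nucleus and inhibit that pair. BMAL1 and CLOCK also switch on Nr1d1, whose product REV-ERBα represses Arntl, and Dbp, which codes for a PAR bZIP factor that activates genes with D-box elements. In tissues with a running clock the levels of Arntl and Dbp peak at nearly opposite times of day, and in adipose tissue the clock sets daily rhythms of lipid release and storage.

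The arrays lay on 3 slides of 8, 6 and 6, each slide with all 3 groups. The scanner software put 66.1% to 71.9% of spots well above background, its call for signal over noise, and saturated none. All 8 adipocyte markers were tested, and their mean log2 intensity lay between 15.40 and 15.86 on every array. The 8 macrophage markers all differed between HFoleic and Ref, as given beside the period genes. Of the 6 epididymis markers Lcn5, Lcn8, Crisp1 and Defb20 were not tested for want of signal, and the same held for the testis markers Odf1 and Akap4, while the mean of the other testis markers ranged from 5.86 to 9.06. The mean of the liver markers ranged from 9.23 to 13.02 and that of the mesothelial markers from 6.62 to 9.56. Array HFepa 3 stood apart from the other HFepa arrays in Arntl, Per3 and Dbp, and results are given with and without it where it matters. HFepa 1 and HFepa 6 stood apart in macrophage markers, as given with the HFepa vs. HFoleic comparison.

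For 9 of the 10 genes the brightest probe, by which each gene is described, was well above background on all 20 arrays. The exception was Npas2, whose single probe passed that call in 5 of 6 Ref mice, in 1 of 6 HFoleic mice and in 3 of 8 HFepa mice. Levels below are log2 intensities after quantile normalization, which can be compared between arrays for 1 probe but not between probes. Differences are log2 fold changes with their standard errors from limma, and every adjusted p is from limma, corrected by Benjamini-Hochberg for the full set of tested probes, with 0.05 as the threshold for a call.

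**Figure D1:**
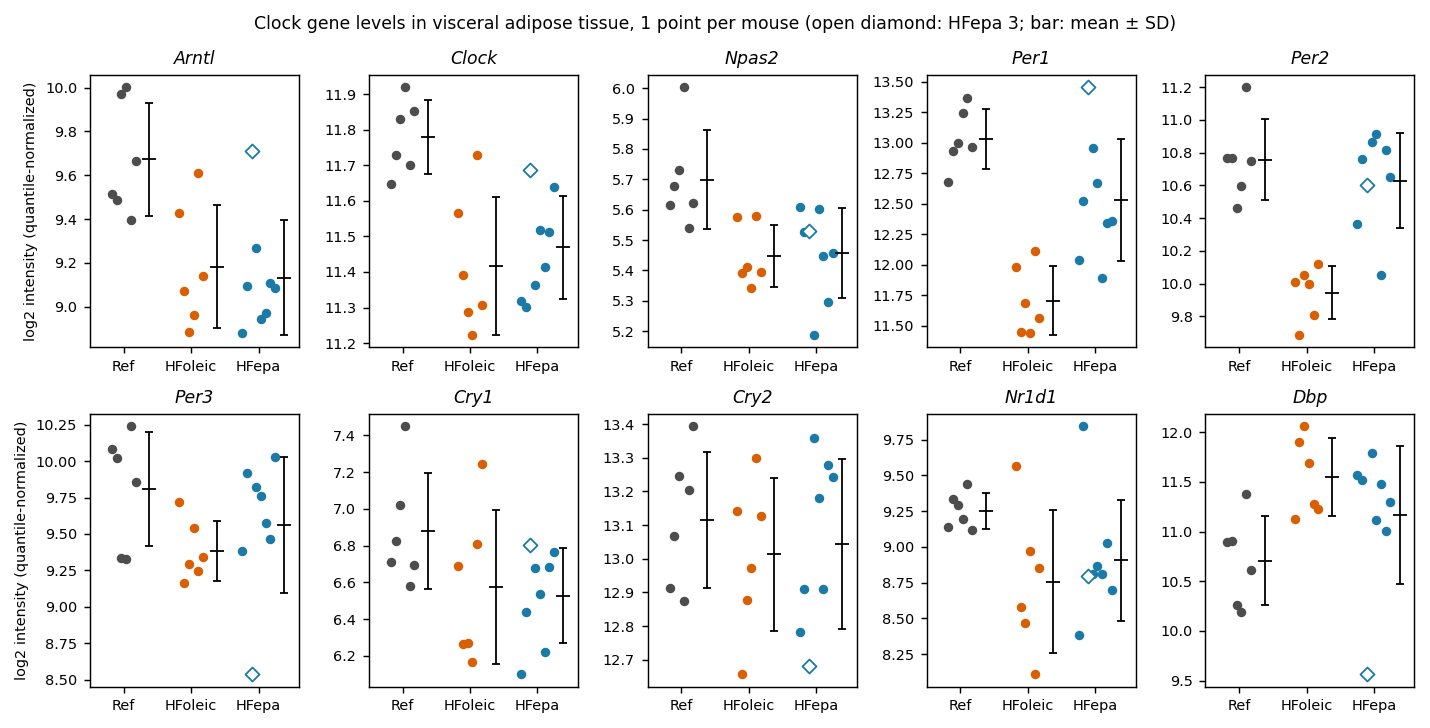
Log2 intensity (quantile-normalized, vertical axis) of the 10 clock genes in Ref (6 mice), HFoleic (6) and HFepa (8), with 1 point per mouse, the bar giving mean ± SD and the open diamond marking HFepa 3. Per1 and Per2 of HFoleic lay below every Ref mouse, and HFepa 3 was the lowest of all 20 mice in Per3 and Dbp.

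Promoter sequences are shown for windows of Arntl, Per1, Cry1 and Per3 that held matches. The levels of Per1 and Cry1 were correlated with that of Arntl over all 20 mice, and Per3 holds the D-box letters. Clock and Dbp were correlated with Arntl too but are not shown, nor are windows without a match. RefSeq windows, from 250 bases before to 50 bases after each transcript start, were found for 9 of the 10 genes, with 13 windows in all and no entry for Per2. Both strands were searched for the E-box CACGTG, its variant CACGTT, the D-box TTATGTAA, its palindromic form TTACGTAA, and the cores AGGTCA and GGGTCA of the element that REV-ERB and ROR proteins bind. No match overlapped another one. Capitals mark the matches, including those read on the other strand, and each sequence is written on the strand of its gene.
Arntl (GRCm38.p6, chr7:113207261-113207560, plus strand): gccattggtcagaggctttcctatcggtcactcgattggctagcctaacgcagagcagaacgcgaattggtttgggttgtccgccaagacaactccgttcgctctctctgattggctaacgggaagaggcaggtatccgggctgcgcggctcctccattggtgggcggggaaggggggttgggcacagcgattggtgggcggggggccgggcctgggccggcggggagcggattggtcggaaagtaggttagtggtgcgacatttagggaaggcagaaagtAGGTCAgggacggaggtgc
Per1 (GRCm38.p6, chr11:69098699-69098998, plus strand): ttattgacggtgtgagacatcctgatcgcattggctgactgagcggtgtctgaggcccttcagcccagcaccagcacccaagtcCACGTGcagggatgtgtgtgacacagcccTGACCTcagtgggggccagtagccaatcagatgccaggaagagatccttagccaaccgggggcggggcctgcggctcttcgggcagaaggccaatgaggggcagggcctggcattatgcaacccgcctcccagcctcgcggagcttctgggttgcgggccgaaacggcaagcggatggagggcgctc
Cry1 (GRCm38.p6, chr10:85185005-85185304, minus strand): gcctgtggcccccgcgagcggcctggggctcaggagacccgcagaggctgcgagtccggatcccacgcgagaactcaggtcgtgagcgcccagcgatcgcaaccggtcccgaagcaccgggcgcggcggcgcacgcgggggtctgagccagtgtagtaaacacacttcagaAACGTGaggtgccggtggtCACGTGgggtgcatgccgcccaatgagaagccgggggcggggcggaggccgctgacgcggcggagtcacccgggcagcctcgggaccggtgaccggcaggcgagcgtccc
Per3 (GRCm38.p6, chr4:151044616-151044915, minus strand): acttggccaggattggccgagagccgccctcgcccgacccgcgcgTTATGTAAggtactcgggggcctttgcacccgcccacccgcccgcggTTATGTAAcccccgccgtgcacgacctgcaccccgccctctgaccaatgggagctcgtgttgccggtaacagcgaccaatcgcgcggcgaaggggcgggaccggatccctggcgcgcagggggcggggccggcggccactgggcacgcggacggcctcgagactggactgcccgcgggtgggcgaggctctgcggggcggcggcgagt

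The first Per1 window held an E-box starting 166 bases before the transcript start, and the Cry1 window one at 60 bases. These were the 2 members with CACGTG, which 7.15% of 32851 promoter windows hold. Cry1, Cry2 and Nr1d1 each held CACGTT on the other strand, at 79, 166 and 28 bases before the start, against 4.68% of all windows. The Per3 window held the D-box at 205 and again at 158 bases before the start, and 0.938% of all windows hold it. AGGTCA, present in 16.3% of windows, was found within the second Arntl window, 32 bases into the transcript, in the first Per1 window and in the third Clock window. GGGTCA (13.7% of windows) and TTACGTAA (0.119%) were found in no member window, and the windows of Dbp and Npas2 held none of the letters searched. The same held for the second Per1 window, the first Arntl window and the first and second Clock windows. A match is a description of letters and was not measured as binding.

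HFoleic vs. Ref asks what the obesogenic diet did in the control lineage. In this comparison Arntl, Clock, Per1 and Per2 fell and Dbp rose. The dim gene Npas2 was also called lower, which makes 6 calls among the 10 genes, or 5 where a probe had to be well above background on all arrays of a group, a filter that Npas2 did not pass. The other 4 genes did not pass the test. A call was made for 30.8% of all tested probes in this comparison, 15.6% lower and 15.2% higher, so many genes outside the clock changed too. At an unadjusted p under 0.05 stood 7 of the 10 genes, against 41.3% of all tested probes. The median log2 fold change of the 10 genes was -0.40, against -0.03 over all tested probes.

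Arntl, the transcription factor at the head of the positive arm, ranged in Ref from 9.39 through a median of 9.59 to 10. In HFoleic it ranged from 8.89 through 9.11 to 9.61. In HFepa it ranged from 8.88 through 9.09 to 9.71, where the highest value was HFepa 3 and the next was 9.27. Ref values were thus the higher ones, with 4 of 6 HFoleic and 7 of 8 HFepa mice below every Ref mouse. Arntl fell by 0.49 ± 0.15 (SE) in HFoleic vs. Ref, to 0.712 times the Ref level (adjusted p = 0.0158). HFepa mice stood at -0.54 ± 0.14 relative to Ref, also a call (adjusted p = 0.0439). The 2 groups on the high-fat diet differed by -0.05, with a 95% interval from -0.34 to 0.24. In HFoleic a second Arntl probe fell by 0.40 (adjusted p = 0.0114), and the third, with -0.32, did not pass (adjusted p = 0.0854). All 3 probes lie on mouse chromosome 7, the brightest at 120456978 to 120457037 (mm9).

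Clock, the partner of BMAL1, ranged in Ref from 11.65 through 11.78 to 11.92 and in HFoleic from 11.22 through 11.35 to 11.73. In HFepa it ranged from 11.30 through 11.46 to 11.69. The groups overlapped through HFoleic 7 and HFepa 3, the highest mice of their groups. In HFoleic vs. Ref Clock fell by 0.36 ± 0.09 (adjusted p = 0.00449), and its difference of -0.31 ± 0.08 in HFepa vs. Ref lay just past the threshold (adjusted p = 0.0511). Of the other 3 Clock probes, 1 fell by 0.53 in HFoleic vs. Ref with no overlap between the groups (adjusted p = 0.00104), and it maps to a cDNA at 76664578 to 76664637 on chromosome 5 (mm9). The remaining ones, at -0.20 and -0.07, did not pass (adjusted p = 0.136 and 0.492).

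Npas2, which can take the place of CLOCK, had a mean of 5.70 in Ref, 5.45 in HFoleic and 5.46 in HFepa, close to the background of the arrays. It entered the test mainly through Ref, where 5 of 6 arrays measured it, against 1 of 6 in HFoleic, so the size of its difference is uncertain. The fitted difference was -0.25 ± 0.08 in HFoleic vs. Ref (adjusted p = 0.0279), and it ran from -0.89 with the scanner's processed signal to -0.16 with normexp background correction. This call was lost when any of 6 arrays was left out (Ref 4, Ref 5, HFoleic 4, HFoleic 5, HFoleic 6 or HFoleic 8), with adjusted p up to 0.0712. The difference in HFepa vs. Ref was -0.24 and did not pass (adjusted p = 0.0933).

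The period genes code for the inhibitory PER proteins, and Per1 showed the largest difference of the 10 genes. Per1 ranged in Ref from 12.68 through 12.99 to 13.36. In HFoleic it ranged from 11.44 through 11.62 to 12.11, so that the highest HFoleic mouse lay below the lowest Ref mouse. In HFepa it ranged from 11.89 through 12.44 to 13.46, spanning both other groups. Per1 fell by 1.33 ± 0.21 in HFoleic vs. Ref, to 0.399 times the Ref level (adjusted p = 4.40e-04). In RNA of a whole tissue, fewer cells of a type and less RNA per cell cannot be told apart. The brightest Per1 probe lies at chr11:68923364-68923423 on the plus strand (mm9). The second one, on a cDNA and above background on 15 of 20 arrays, differed by 0.09 and did not pass (adjusted p = 0.315).

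Per2 ranged in Ref from 10.46 through 10.76 to 11.20, in HFoleic from 9.69 through 10 to 10.12, and in HFepa from 10.05 through 10.71 to 10.91. Its brightest probe lies at chr1:93312595-93312654 on the minus strand (mm9). As for Per1, no HFoleic mouse reached the lowest Ref mouse. Per2 fell by 0.81 ± 0.14 in HFoleic vs. Ref, to 0.570 times the Ref level (adjusted p = 5.33e-04), and its dimmer second probe fell by 0.24 (adjusted p = 0.0198). Per1 and Per2 were the 2 of 10 genes whose HFoleic and Ref values did not overlap, where 13.2% of all tested probes did not overlap. Neither gene's call depended on any one array. When the fit was repeated 20 times without 1 array, Per1 stayed between -1.41 and -1.26 and Per2 between -0.87 and -0.72, with adjusted p of at most 0.0017 and 0.00201. On slides 1, 2 and 3 taken alone the Per1 difference was -1.14, -1.66 and -1.28 and the Per2 difference -0.73, -0.99 and -0.90.

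Per3 ranged in Ref from 9.33 through 9.94 to 10.24 and in HFoleic from 9.17 through 9.32 to 9.72. In HFepa the lowest value was 8.54, in HFepa 3, followed by 9.38, with a median of 9.67 and a highest value of 10.03. The difference of -0.43 ± 0.21 in HFoleic vs. Ref did not pass (adjusted p = 0.129), though without HFepa 3, which narrows the shared spread, it did (adjusted p = 0.0444). The other Per3 probes differed by -0.01 and -0.15 and did not pass (adjusted p = 0.977 and 0.451).

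The cryptochromes are the partners of PER in inhibition. Cry1 ranged in Ref from 6.58 through 6.77 to 7.45, in HFoleic from 6.17 through 6.48 to 7.25, and in HFepa from 6.10 through 6.61 to 6.80. The groups overlapped widely, and the differences from Ref of -0.31 ± 0.18 in HFoleic and -0.35 ± 0.17 in HFepa did not pass (adjusted p = 0.209 and 0.240). The second Cry1 probe disagreed, since it fell by 0.46 ± 0.12 in HFoleic vs. Ref (adjusted p = 0.00732). Cry2 stood at a mean of 13.12 ± 0.20 (SD, n = 6) in Ref, 13.01 ± 0.23 (n = 6) in HFoleic and 13.04 ± 0.25 (n = 8) in HFepa. Its difference of -0.10 in HFoleic vs. Ref had a 95% interval from -0.37 to 0.17. One of its other probes fell by 0.28 (adjusted p = 0.0461) and the last, at -0.25, did not pass (adjusted p = 0.0922).

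Nr1d1, the repressor of Arntl, ranged in Ref from 9.12 through 9.25 to 9.44, in HFoleic from 8.11 through 8.72 to 9.57, and in HFepa from 8.38 through 8.81 to 9.84. The Ref mice were close together, with an SD of 0.12, against 0.50 in HFoleic and 0.42 in HFepa. Of the HFoleic mice 5 of 6 lay below every Ref mouse and 1, HFoleic 1, lay above all of them. In HFepa 7 of 8 lay below every Ref mouse and HFepa 2 lay above all. The differences of -0.50 ± 0.21 and -0.35 ± 0.20 did not pass (adjusted p = 0.0804 and 0.329). Without HFoleic 1 or without HFepa 2 the first one passed, with a lowest adjusted p of 0.012.

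Dbp, the output factor, ran the other way. It ranged in Ref from 10.19 through 10.75 to 11.38 and in HFoleic from 11.12 through 11.49 to 12.06. In HFepa it ranged from 9.56, in HFepa 3, through 11.39 to 11.79, with the next lowest HFepa mouse at 11. Dbp rose by 0.84 ± 0.30 in HFoleic vs. Ref, to 1.79 times the Ref level (adjusted p = 0.0362), with 3 of 6 HFoleic mice above every Ref mouse. The probe lies at chr7:52965265-52965324 on the plus strand (mm9), and the second one, close by, gave 0.83 (adjusted p = 0.0356). The call was lost when any of 6 arrays was left out (Ref 4, Ref 5, Ref 7, HFoleic 4, HFoleic 5 or HFoleic 6), with differences from 0.74 to 0.82 in those fits. In HFepa vs. Ref the difference was 0.46 ± 0.28 (adjusted p = 0.364).

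HFepa vs. Ref, the comparison of both diet and lineage, gave a call for 1 of the 10 genes, Arntl, where 2.26% of all tested probes were called (1.3% lower, 0.96% higher). In no gene were the groups apart without overlap, against 0.934% of all tested probes. At an unadjusted p under 0.05 the number was 5 of 10, against 20.7% of all tested probes. Of the 10 differences 9 were negative, with a median of -0.28. Without HFepa 3 the calls became 4, with Arntl at -0.62 ± 0.12 (adjusted p = 0.00984), Clock at -0.34 ± 0.08 (0.0212), Per1 at -0.63 ± 0.16 (0.0267) and Dbp at 0.69 ± 0.19 (0.0412). The share of all tested probes called rose to 6.38% in that fit. The Arntl call was kept in 7 of 20 fits that left out 1 array, those without Ref 7, HFoleic 1, 5 or 7, or HFepa 3, 4 or 8, and the adjusted p reached 0.101 in the others. With slide as a block the Arntl difference was -0.53 and did not pass (adjusted p = 0.053), and on slides 1, 2 and 3 alone it was -0.53, -0.72 and -0.27.

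HFepa vs. HFoleic, the comparison of lineages on the obesogenic diet, gave no call among the 10 genes, and 0.00254% of all tested probes, a single one, were called by limma. At an unadjusted p under 0.05 stood 2 of 10 genes, Per1 and Per2, against 20.6% of all tested probes. Per1 was 0.82 ± 0.19 higher in HFepa, with a 95% interval from 0.42 to 1.23 (adjusted p = 0.117 by limma). Per2 was 0.68 ± 0.13 higher, with an interval from 0.42 to 0.95 (adjusted p = 0.117 by limma), and 7 of 8 HFepa mice lay above every HFoleic mouse. Per2 ranked 7 by p among the 39390 probes in this comparison and Per1 ranked 109. Groups did not overlap for 0.434% of all tested probes, and for none of the 10 genes. Among HFepa mice, HFepa 6 and HFepa 1 were the lowest in Per1 (11.89 and 12.04) and in Per2 (10.05 and 10.36). They also had mean macrophage marker levels of 14.20 and 14.74, within or above the HFoleic range of 12.96 to 14.57, where the other HFepa mice lay between 11.59 and 12.67. In the glucocorticoid target list described below they were likewise the lowest HFepa mice, at 12.89 and 12.79, with the others between 13.11 and 13.78. HFepa 1 also had the lowest mean adipocyte marker level of its group, 15.40. Both genes passed without HFepa 1, Per1 at 0.89 and Per2 at 0.72 (both adjusted p = 0.0271), in a fit that called 7.28% of all tested probes. They also passed without HFoleic 1, at 0.88 and 0.69 (adjusted p = 0.0353 and 0.0269), where 4.22% were called. Without HFepa 6, Per2 passed at 0.76 (adjusted p = 0.0252) and Per1 at 0.92 did not (adjusted p = 0.0616). With slide as a block both Per1 and Per2 passed, Per1 at 0.84 (adjusted p = 0.0337) and Per2 at 0.72 (0.0257), in a fit that called 3.29% of all tested probes. On slides 1, 2 and 3 alone the differences were 0.69, 1.01 and 1.00 for Per1 and 0.60, 0.87 and 0.78 for Per2. For the other 8 genes the differences ran from -0.38 for Dbp, with an interval from -0.96 to 0.20, to 0.18 for Per3, with an interval from -0.23 to 0.59.

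**Figure D2:**
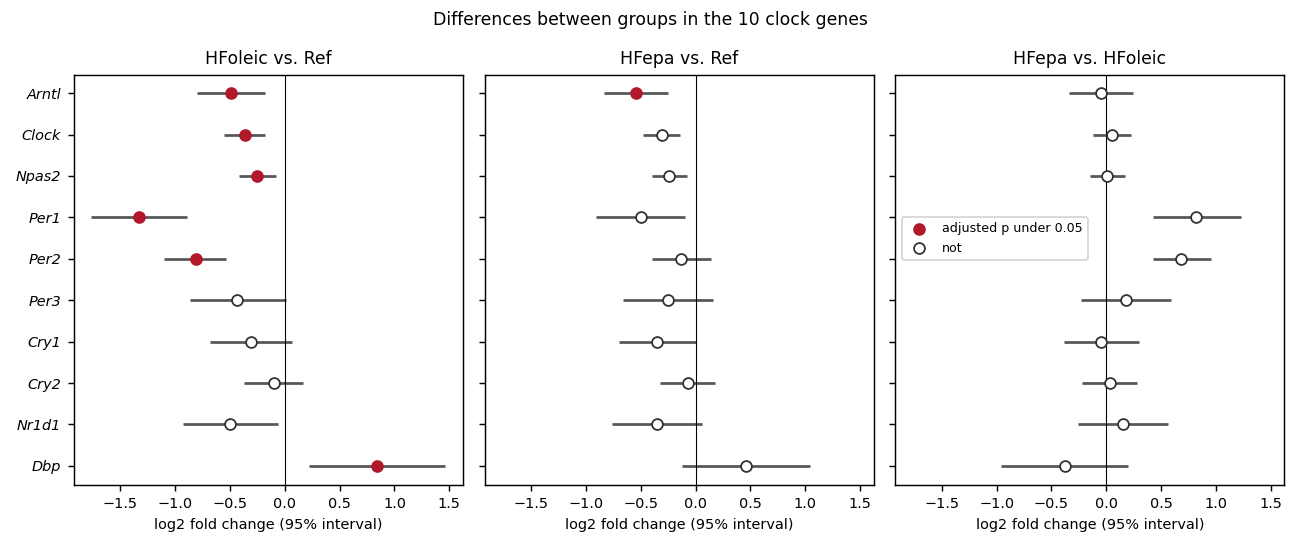
Log2 fold change (horizontal axis) with its 95% interval for the 10 clock genes in the 3 comparisons, filled where the adjusted p was under 0.05. Of the genes 6 were called in HFoleic vs. Ref, 1 in HFepa vs. Ref and none in HFepa vs. HFoleic, where Per1 and Per2 had intervals above 0.

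Macrophage markers moved with the diet contrast in which Per1 and Per2 fell. All 8 were called higher in HFoleic vs. Ref, with a median difference of 2.34, led by Gpnmb at 4.89 and Trem2 at 4.22. Their summed intensity ranged from 55900 to 88700 in Ref, from 156000 to 361000 in HFoleic and from 65400 to 381000 in HFepa. Of the 8 adipocyte markers 3 were called, 1 higher and 2 lower, near the 30.8% of all tested probes called in HFoleic vs. Ref (15.6% lower, 15.2% higher). Their largest changes were Lipe at -1.19 and Lep at 1.13. Of the 9 targets of the glucocorticoid receptor in the list, 6 fell in HFoleic vs. Ref, led by Cebpd at -1.46 and Sgk1 at -1.21, and the median of the list was -0.71. Per1 is itself known as a target of that receptor. Of the 9 immediate early genes, which answer to acute stimuli and handling, Ier2 and Nr4a1 fell by 0.50 and 1.11 and Atf3 rose by 2.94. None of these lists had a call by limma in HFepa vs. Ref or in HFepa vs. HFoleic, where 2.26% and 0.00254% of all tested probes were called. In HFepa vs. HFoleic all 8 macrophage markers had negative differences, with a median of -1.24, and all 9 glucocorticoid targets positive ones, with a median of 0.38. In HFepa vs. Ref all 8 macrophage markers had positive differences, with a median of 1.1, and the median of the glucocorticoid targets was -0.34. Of the markers of further cell types, 1 of 6 liver genes and 1 of 4 tested testis genes were called lower in HFoleic vs. Ref, and none of 5 mesothelial, 6 T cell, 5 endothelial and 2 tested epididymis genes was called by limma in any comparison.

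Across mice, with the group means taken out, Per1 was lower where macrophage markers were higher (Pearson's r = -0.78, adjusted permutation p = 0.0188, and Spearman's rho = -0.81, adjusted permutation p = 0.0014, over 20 arrays). These relations were added after the values had been seen, 20 in all for the 10 genes and the mean level of the macrophage and glucocorticoid lists. The p-values were adjusted over the 20, which does not cover the choice of lists. No other list was set against the genes in this way. How many genes outside the clock follow the macrophage level as closely was not tested. For Per1 and macrophages r was -0.77 without the 2 arrays farthest from the median of the marker level, and -0.82, -0.94 and -0.98 on slides 1, 2 and 3. Those 2 arrays, HFepa 1 and HFoleic 6, were picked before group means were taken out, which kept HFepa 6 in. The call was lost only without HFepa 6 (r = -0.72). Clock (r = -0.57) and Cry1 (r = -0.56) also passed with the macrophage list, with adjusted permutation p = 0.0456 and 0.0406. With the glucocorticoid list Per1 (r = 0.68), Clock (r = 0.57) and Arntl (r = 0.54) passed, with adjusted permutation p = 0.0406, 0.0456 and 0.0456. Spearman's rho for these was -0.59 and -0.65 with macrophages and 0.55, 0.64 and 0.48 with glucocorticoid targets, with adjusted permutation p = 0.055, 0.0283, 0.103, 0.0283 and 0.103. Without the 2 farthest arrays r was -0.49 and -0.42 with macrophages and 0.67, 0.51 and 0.52 with glucocorticoid targets. Within slides 1, 2 and 3 Clock gave -0.83, 0.00 and -0.59 with macrophages, Cry1 -0.56, -0.67 and -0.35, and, with glucocorticoid targets, Per1 0.65, 0.68 and 0.48, Clock 0.54, 0.14 and 0.79, and Arntl 0.36, 0.32 and 0.64. These 5 relations rested on single arrays. With 1 array left out, Clock and Cry1 with macrophages were called in 8 and 12 of 20 fits, and Per1, Clock and Arntl with glucocorticoid targets in 11, 7 and 7. Without HFepa 3, for example, r was -0.51 and -0.53 with macrophages and 0.58, 0.49 and 0.40 with glucocorticoid targets, and none passed (adjusted permutation p from 0.0617 to 0.0897), while Per1 with the macrophage list did (r = -0.79, adjusted permutation p = 0.0034). The part of cell makeup in the clock gene differences was not tested.

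The 10 genes were then set against each other across the 20 mice, again with group means taken out, to see which moved together beyond the diets. Of 45 pairs 6 were correlated at an adjusted permutation p under 0.05, 3 positively and 3 negatively. Where the partners of Arntl and Dbp stand among all gene names is given further below. Arntl and Dbp ran opposite (r = -0.79, adjusted permutation p = 0.0069, and rho = -0.73, adjusted permutation p = 0.0232). The Ref mouse with the highest Arntl, Ref 5 at 10, had the lowest Dbp of its group at 10.19, and the one with the lowest Arntl, Ref 6 at 9.39, had the highest Dbp at 11.38. HFepa 3, highest of its group in Arntl at 9.71, had the lowest Dbp of all 20 mice at 9.56. The r of Arntl and Dbp was -0.96 in Ref, -0.78 in HFoleic and -0.78 in HFepa (exact permutation p = 0.00139, 0.075 and 0.0901). On slides 1, 2 and 3 it was -0.82, -0.58 and -0.90. The HFepa value rested on HFepa 3, and among the other HFepa mice HFepa 4 was highest in both Arntl (9.27) and Dbp (11.79). Leaving out Ref 4 and Ref 5, the 2 arrays farthest from the Arntl median before group means were taken out, gave -0.76, with HFepa 3 kept in.

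Arntl moved together with its partner Clock and with Per1 and Cry1. Arntl correlated with Clock (r = 0.76, adjusted permutation p = 0.0069), Per1 (r = 0.69, 0.0154) and Cry1 (r = 0.66, 0.0204). Spearman's rho was 0.67, 0.50 and 0.72 for these, with adjusted permutation p = 0.0258, 0.136 and 0.0232, so the pair with Per1 did not pass by rank. Dbp ran opposite to Clock (r = -0.67, adjusted permutation p = 0.0069, and rho = -0.66, adjusted permutation p = 0.0258) and to Cry1 (r = -0.61, adjusted permutation p = 0.0204, and rho = -0.69, adjusted permutation p = 0.0258). All 6 called pairs had 1 sign of r in all 3 groups, but the sizes differed. For Arntl and Dbp the negative sign in HFepa came from HFepa 3 and was not seen among the other HFepa mice. In Ref, HFoleic and HFepa, Arntl gave 0.84, 0.95 and 0.55 with Clock and 0.14, 0.86 and 0.87 with Per1. With Cry1 it gave 0.86, 0.54 and 0.69. Dbp gave -0.81, -0.57 and -0.77 with Clock and -0.82, -0.79 and -0.51 with Cry1. Each of the 6 pairs had an exact permutation p over 0.05 in at least 1 group, up to 0.756 for Arntl and Per1 in Ref. Without the 2 farthest arrays r was 0.75 for Arntl and Clock, 0.74 for Arntl and Per1, 0.58 for Arntl and Cry1, -0.67 for Clock and Dbp and -0.55 for Cry1 and Dbp. On slides 1, 2 and 3 Arntl gave 0.68, 0.51 and 0.91 with Clock, 0.69, 0.80 and 0.59 with Per1 and 0.54, 0.98 and 0.91 with Cry1, while Dbp gave -0.45, -0.89 and -0.71 with Clock and -0.72, -0.57 and -0.84 with Cry1.

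Array HFepa 3 decided whether these pairs passed. Without it no pair was called, although r stayed at 0.71 for Arntl and Clock, 0.52 for Arntl and Per1, 0.67 for Arntl and Cry1, -0.68 for Arntl and Dbp, -0.64 for Clock and Dbp and -0.70 for Cry1 and Dbp. The adjusted permutation p was then 0.0556 for each of these pairs but Arntl and Per1, with 0.0942. Without Ref 5 the pairs of Cry1 with Arntl and with Dbp were lost and 4 pairs remained called. Per3 and Dbp, both lowest in HFepa 3, gave r = 0.72 (adjusted permutation p = 0.0516) with all arrays and 0.41 without that array. Npas2, Per2, Per3, Cry2 and Nr1d1 were in no called pair, and the r of Nr1d1 was -0.02 with both Arntl and Dbp.

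**Figure D3:**
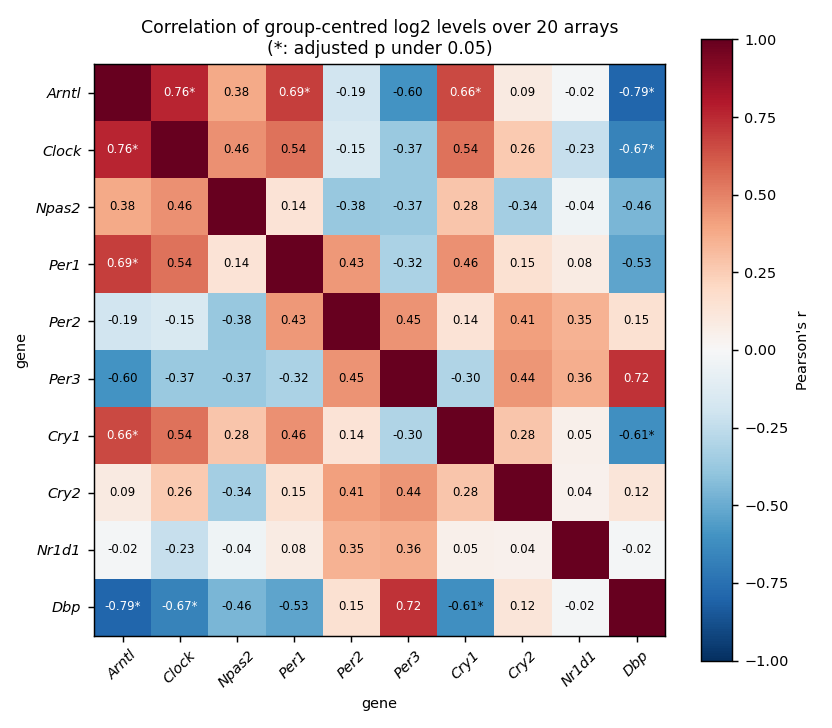
Pearson's r between the group-centred log2 levels of the 10 clock genes over 20 arrays, from -1 (blue) to 1 (red), with genes on both axes and a star where the adjusted permutation p was under 0.05. Arntl has stars with Clock, Per1, Cry1 and Dbp, and Dbp has stars with Arntl, Clock and Cry1, while Per1 and Dbp, at r = -0.53, have none.

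**Figure D4:**
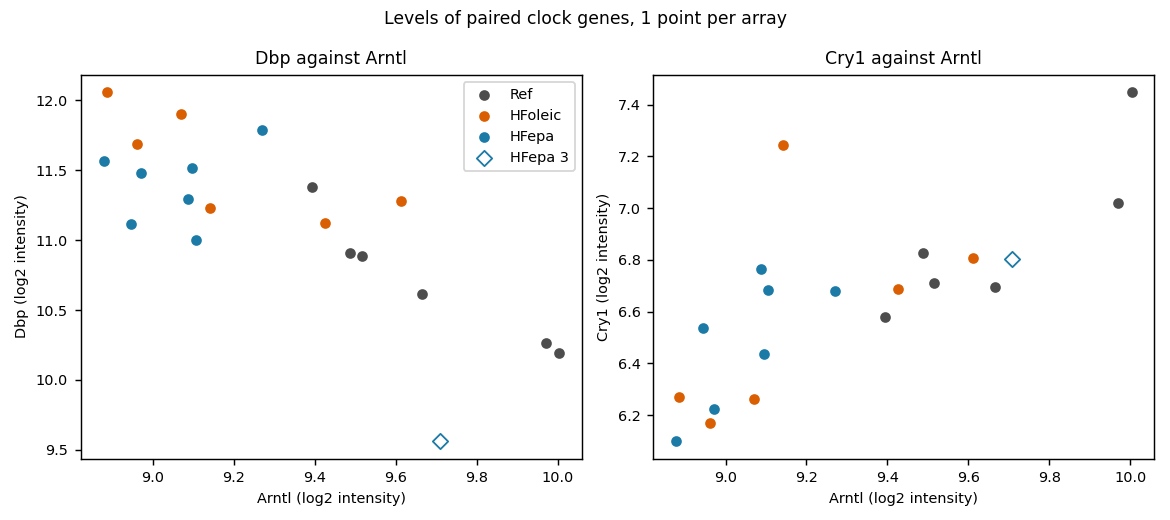
Log2 intensity of Dbp (left, vertical axis) and Cry1 (right, vertical axis) against Arntl (horizontal axis), with 1 point per array and colours for Ref, HFoleic and HFepa. Dbp was lower where Arntl was higher within Ref and HFoleic. In HFepa that slope rested on HFepa 3 (open diamond), at an Arntl of 9.71 and a Dbp of 9.56. Among the other HFepa mice, HFepa 4 was highest in both Arntl (9.27) and Dbp (11.79).

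Among all 20098 gene names with 1 group-centred value on each of the 20 arrays, the 5 most like Arntl were Slc4a1ap (r = 0.88), Pole4 (0.87), Gm26910 (0.87), Ppp2r2d (0.87) and Elp4 (0.86). Those most opposite were Raet1a (-0.84), As3mt (-0.81), Cep164 (-0.81), Abracl (-0.81) and Lxn (-0.80). Dbp stood 8 places from the bottom of that order, while Clock, Per1 and Cry1 stood 110, 421 and 592 places from its top. Many genes outside the clock thus had an r with Arntl as high as these 3 genes. In the order for Dbp, Arntl, Clock and Cry1 stood 42, 486 and 929 places from the bottom. For Dbp the 5 most like were Maged2 (0.88), Cryl1 (0.87), Hrasls (0.87), Myh14 (0.86) and Fhod3 (0.84), and the most opposite were Gucy2d (-0.89), Prune (-0.89), Rtp3 (-0.88), Nmt2 (-0.87) and Nap1l1 (-0.87). No clock gene was among these 20 names. Such extremes of a long list over 20 arrays are given as a description only.

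The other genes of the clock pathway were taken from lists of transcription factors, PAR bZIP factors with their opponent Nfil3, kinases and ubiquitin ligases that act on clock proteins, and rhythmic outputs. The list of kinases and ligases also held Timeless and the deubiquitinase gene Usp2, which are neither. Of 31 listed genes 30 were tested, Rorb not. In HFoleic vs. Ref 10 of the 30 were called, 8 lower and 2 higher, against 30.8% of all tested probes. In HFepa vs. Ref and in HFepa vs. HFoleic none was called by limma. The list of transcription factors had 2 of 8 called, that of PAR bZIP and Nfil3 0 of 3, that of kinases and ligases 5 of 9 and that of outputs 3 of 10, with median differences of 0.04, -0.17, -0.02 and -0.18.

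Rora, whose product activates Arntl from the element that REV-ERB represses, fell by 0.43 ± 0.11 in HFoleic vs. Ref (adjusted p = 0.00591), from a mean of 13.12 in Ref to 12.69. Its mean in HFepa was 12.91, between the others. Of the list of kinases and ligases, the kinase gene Csnk1e fell by 0.41 without overlap (adjusted p = 0.00192). The F-box gene Fbxl21 fell by 0.16 and the deubiquitinase gene Usp2 by 0.98 (adjusted p = 0.044 and 0.0313), while Timeless rose by 0.65 (adjusted p = 0.00166). Among the outputs Fkbp5, also a glucocorticoid target, fell by 1.16 without overlap (adjusted p = 0.00134), Por, which feeds electrons to cytochrome P450 enzymes, fell by 0.75 (adjusted p = 0.00185), and Angptl4, an inhibitor of lipoprotein lipase, rose by 0.21 (adjusted p = 0.00996).

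The PAR bZIP relatives of Dbp were not called. Tef differed by -0.17 ± 0.13 and Hlf by -0.34 ± 0.14 in HFoleic vs. Ref, and neither passed (adjusted p = 0.349 and 0.0673). Nfil3, which competes with them for the D-box, differed from Ref by -0.15 ± 0.15 in HFoleic mice (adjusted p = 0.456) and by -0.47 ± 0.14 in HFepa mice (adjusted p = 0.0672). Without HFepa 3 the HFepa difference was called at -0.51 (adjusted p = 0.0337), as was Fkbp5 at -0.85 (0.0217). Nr1d2, the relative of Nr1d1, had means of 9.95 in Ref, 9.95 in HFoleic and 10.11 in HFepa, with a 95% interval of -0.24 to 0.25 in HFoleic vs. Ref.

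**Figure D5:**
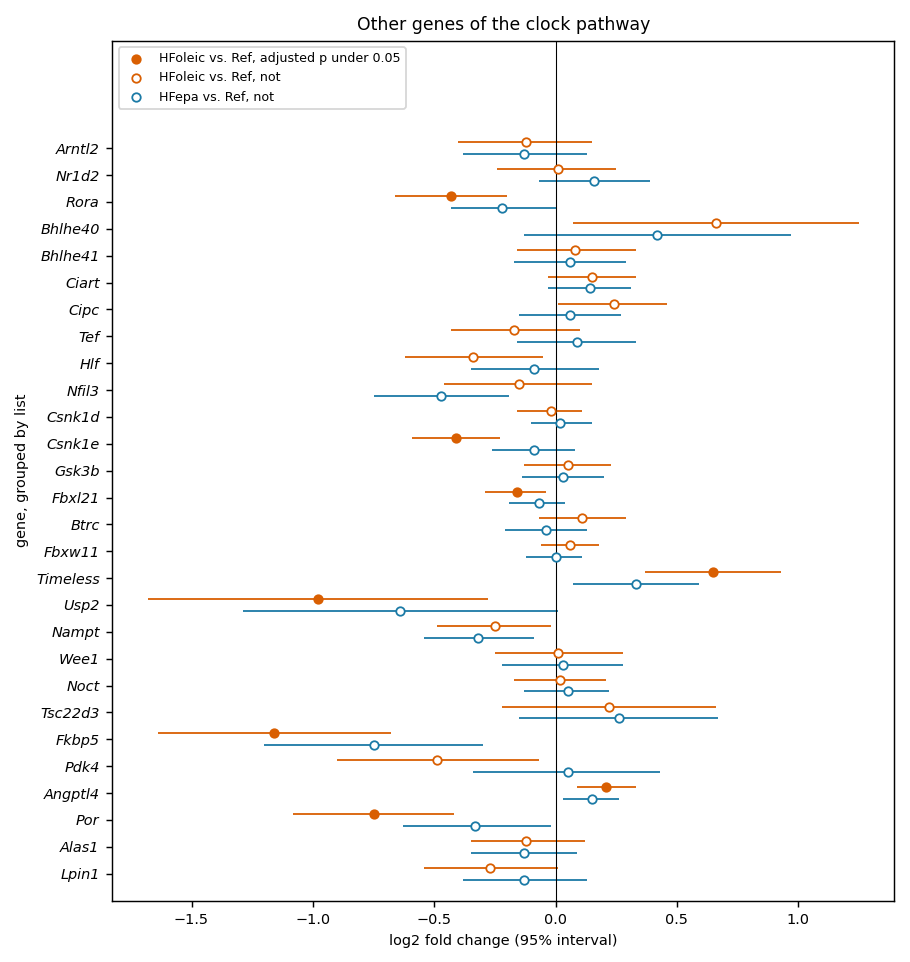
Log2 fold change with its 95% interval (horizontal axis) of other clock pathway genes in HFoleic vs. Ref (orange) and HFepa vs. Ref (blue), filled where the adjusted p was under 0.05. Of the genes plotted, Fkbp5 at -1.16 and Usp2 at -0.98 lay farthest below 0 in HFoleic vs. Ref, and Timeless and Angptl4 were the genes called higher.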

How the data were processed

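RNA of visceral adipose tissue from 20 mice was hybridized to Agilent arrays of 1 colour. Per the file headers the authors extracted spot intensities with Agilent Feature Extraction 10.10.1.1, and the deposited median intensity has no normalization. The authors also deposited log2 values that they had filtered and quantile-normalized by an unstated filter, used here as an alternative.

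Median intensities were log2-transformed, quantile-normalized between arrays and averaged per probe in R 4.3.3 with limma 3.58.1. Control spots and spots marked as outliers were left out, and a probe was tested when well above background on at least 6 arrays. One mean per group was fitted to all 20 arrays. Each gene was taken by its probe with the highest mean. Correlations used 100000 permutations within groups (NumPy 2.4.6). Samples were grouped by the diet and fatty acid in the labels. The fit was tested on simulated data with independent noise for each probe. Changes of 1 log2 unit in 200 of 39390 probes were recovered for 92% of the changed probes in HFoleic vs. Ref, and 14 unchanged probes were called. Among the clock genes only Per1 differed by more than that, so this share does not apply to the smaller differences. The number of arrays limits the precision.

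The members and lists were chosen with earlier results of these data known. The text names the 10 members, the called genes of the other clock pathway lists, of which 2 are counted but not reported here by name, the 5 genes most and least like Arntl and Dbp, and the 2 largest changes of each marker or response list with over 1 call. Nfil3, Tef, Hlf, Nr1d2 and the correlations with the macrophage and glucocorticoid lists were added after values were seen. Probe coordinates are on mm9 as the files give them and promoter windows on GRCm38.p6 from RefSeq.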

Additional observations from a re-analysis of the deposited data

Results flagged for a closer look

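Within groups, 30 sets of values (10 genes in 3 groups) were checked for a mouse far from the rest by Dixon's gap over range, and 4 stood out, where chance alone marks about 1 in 20. Of these, 3 gaps belong to HFepa 3, in Dbp (9.56 against the next lowest 11, gap over range 0.647), Per3 (8.54 against 9.38, 0.57) and Arntl (9.71 against 9.27, 0.528). The remaining one is HFepa 2 in Nr1d1 (9.84 against 9.03, 0.557). What sets these mice apart was not tested.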

How the results depend on the processing

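Each comparison was recomputed under the alternative settings and 20 times without 1 array. Per1, Per2 and Clock were called in HFoleic vs. Ref under every one of these, although the mean of all probes gave a Per1 difference of -0.62. The count of clock genes called in HFoleic vs. Ref ranged from 4 to 7 with 1 array left out. In HFepa vs. Ref it ranged from 0 to 4, and was 0 with median centring, without a filter, with slide as a block, with only the groups compared and with the mean of all probes, and 2 with the authors' table, a filter on a whole group and array weights. In HFepa vs. HFoleic it ranged from 0 to 2, reached 2 without HFoleic 1 or HFepa 1, and was 2 with slide as a block and with array weights. Other pathway genes called ranged from 8 to 11 in HFoleic vs. Ref, 0 to 3 in HFepa vs. Ref and 0 to 4 in HFepa vs. HFoleic with 1 array left out. In HFepa vs. Ref they came to 1 with normexp, the authors' table, a filter on a whole group, slide as a block, array weights and the mean of all probes. In HFepa vs. HFoleic they came to 2 with slide as a block and 6 with array weights. Called pairs of clock genes ranged from 0 to 9 with 1 array left out and were 14 without centring on group means. Over all probes, HFepa vs. Ref gave 892 calls, 575 with median centring, 583 without a filter, 140 with only the groups compared, 1454 with array weights and 130 to 2513 with 1 array left out. HFepa vs. HFoleic gave 1 call, 4304 with array weights, 1297 with slide as a block and 0 to 2867 with 1 array left out.

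Near 0, the HFepa vs. HFoleic difference changed sign for Cry1 (0.03 with processed signal, 0 after rounding with median centring, 0.07 with the mean of all probes), Cry2 (-0.02 with median centring) and Arntl (0.02 with the mean of all probes). With 1 array left out it ranged from -0.13 to 0.04 for Arntl, -0.13 to 0.09 for Cry1, -0.04 to 0.09 for Cry2 and -0.01 to 0.05 for Npas2. The causes were not tested.

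The labels do not state whether replicate numbers pair mice. The paper reports matching of HFoleic and HFepa mice by body weight, without naming pairs. Over 16 same-numbered pairs the deviations correlated from -0.59 to 0.56, and 5 were over 0.1, which cannot decide whether the numbers pair mice. With the replicate block 3 clock genes were called in HFoleic vs. Ref (Clock, Per1 and Per2) and 0 in HFepa vs. Ref and in HFepa vs. HFoleic, with 7873 probes called in the first against 12147 without the block, and 25 in the second.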
